A study of Homo sapiens with 39 samples.

Results

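The subject is how the transcriptional effect of zinc sulfate (ZnSO4) changed between 3 h and 6 h of treatment in JJN3, a human plasma cell line established from a patient with multiple myeloma. Its members are the 12 of 39 RNA-seq libraries that the labels place in ZnSO4 3 h, DMSO 3 h, ZnSO4 6 h and DMSO 6 h, with 3 libraries each. Each gene has 1 value, the difference of effects: the log2 ratio of ZnSO4 to DMSO at 6 h minus the same ratio at 3 h. A negative difference of a gene that zinc raised means a rise that shrank, and a difference near 0 means an effect of like size at both times. All 12 cultures were JJN3 cells in RPMI with 10% FCS, and no allele, transgene or further agent is named in the labels. DMSO is the only control at either time, and the dose of ZnSO4 is not given in the sources used here. Nothing in the labels says that the 3 libraries of a group came from separate cultures, so p-values cover only the variation among these libraries, part of which may be technical. The remaining 27 libraries (T0, the 1 h and 24 h groups, and the compound GSK-J4) served to estimate that spread, and 1 h and 24 h are given as context.

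Zinc that enters a cell is bound by metallothioneins, small cysteine-rich proteins, and is moved by SLC30 exporters and SLC39 importers. The zinc-sensing transcription factor MTF1 binds metal response elements in the promoters of metallothionein genes and of SLC30A1. Excess metal can also damage proteins and thiols, and cells are known to answer such damage through HSF1, which induces chaperones, NRF2, which induces antioxidant enzymes, and ATF4, which induces amino acid transport and biosynthesis genes. Plasma cells secrete antibody in bulk and are known for their reliance on these protein-folding systems.

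Libraries held 4347745 to 9280121 counts, and the share of counts from mitochondrial genes was 3.39% to 3.84%. The first principal component of the 12 libraries separated the treatments (29.04% of the variance). The third library of DMSO at 6 h stood apart from the others of its group: 25704 genes had a count in it, against 22785 and 21896, and its score on the third component was 11.71 against -14.63 and -20.63. In CPM (counts scaled to a common library size with TMM factors), that library lay near the DMSO mean at 1 h in several genes. DNAJB1 stood at 129 CPM in it, against a mean of 136 at 1 h and 335 and 340.5 in the other 6 h libraries. For HSPA8 these values were 3178, 3277, 4980.0 and 5040.0 CPM, and for MYC 1159, 1249, 849 and 834 CPM. FOS went another way, with 7.28 CPM against 4.05 at 1 h. This likeness was not counted over all genes, and whether the 6 h label of that library is right was not tested. Many of the results that rest on the third DMSO library at 6 h are given with and without it, and the others with it only. The 8 plasma cell markers summed to 1608 to 2197 CPM in all 12 libraries, and the T cell markers to at most 1.73 CPM. Of the stromal markers, 3 collagen genes passed the filter on low counts, and all 3 were lower under ZnSO4 at 3 h; the list's sum was 12.9 to 29.5 CPM there against 24.4 to 82.1 CPM in DMSO, and its part in the results was not tested.

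Among 14460 genes tested, 315 had a called difference of effects (edgeR quasi-likelihood test, adjusted p under 0.05), which is 2.18% of the genes tested. Most of these differences, 225 genes or 1.56%, lay below 0, and 90 genes or 0.622% lay above 0. The 90 became 53 without the third ZnSO4 library at 6 h, 56 without the second at 3 h, 59 without the first DMSO library at 3 h and 47 with no filter (247 below 0). The difference was at least 2-fold in 46 of the genes below 0 (0.318% of all tested) and in 10 of those above 0 (0.0692%). With library totals in place of TMM factors the split was 160 below and 143 above 0, so the excess of negative differences depends on the scaling, while the median over all genes moved only from -0.0039 to 0.0485. Without the third library of DMSO at 6 h, 206 genes lay below and 72 above 0, of which 191 and 50 were among the genes called with all libraries.

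More genes were called between the times in the treated libraries than in the DMSO libraries. ZnSO4 and DMSO differed in 10.8% of genes at 3 h and in 9.32% at 6 h, 4.81% higher and 4.51% lower. Between 3 h and 6 h, 1463 genes (10.1%) changed in the ZnSO4 libraries, 663 higher and 800 lower, whereas 0 genes (0.0%) passed in the DMSO libraries by edgeR or DESeq2, with 731 at an unadjusted p under 0.05 by edgeR and 540 by DESeq2. Leaving out the third DMSO library at 6 h raised the 731 to 1145 by edgeR, and again 0 passed. Of the 225 genes with a difference below 0, 221 were also called in the ZnSO4 libraries between the times, and in 222 the ZnSO4 change was larger than the DMSO change. Their median log2 change was -0.50 in ZnSO4 and 0.058 in DMSO. Of the 90 genes with a difference above 0, 85 were called in the ZnSO4 libraries, where their median change was 0.55, against -0.037 in DMSO. These counts and medians are descriptions. The difference is the ZnSO4 change minus the DMSO change in the same libraries, so choosing genes by it favours changes of these directions.

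A rise that had shrunk or vanished by 6 h was the most frequent course. Of the 225 genes below 0, 183 had risen at 3 h (6.59% of all genes were called higher then). In 76 of them the 6 h estimate was still above 0 but smaller, and 24 of these were still called at 6 h. In 107 the 6 h estimate lay below 0, and 18 of these were called lower than DMSO at 6 h. A further 32 genes were called at 6 h only, and 10 at neither time. Leaving out the third DMSO library at 6 h changed the 32 to 13, and left 65 and 115 genes in the first and second courses. Of the 90 genes above 0, 53 had fallen at 3 h (4.16% of all genes): 9 were still below DMSO at 6 h by a smaller amount and 44 had an estimate above DMSO, 12 of them called. Only 4 genes had grown from a called effect, 1 without that library, and 23 were called at 6 h alone. These courses are descriptions, since a gene picked for its 3 h value is more likely to look smaller at 6 h in a difference that holds the same libraries.

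**Figure D1:**
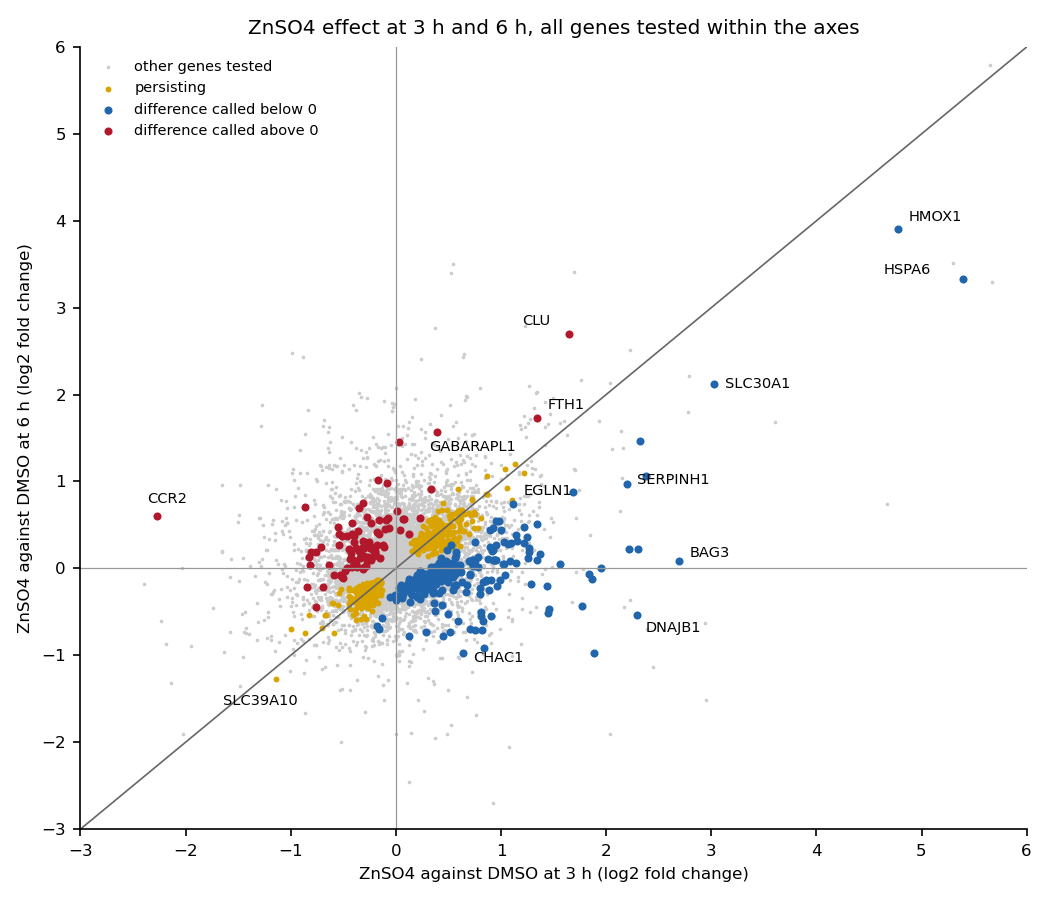
Log2 fold change of ZnSO4 against DMSO at 3 h (horizontal axis) and at 6 h (vertical axis), 1 point per gene tested and a line of equal effects. Blue points are called differences below 0, red points are called differences above 0, and gold points are persisting genes. Blue points lie below the line mostly to the right of 0, with HMOX1 and HSPA6 far to the right and DNAJB1 and CHAC1 below 0 at 6 h. Genes beyond the axes (-3 to 6), such as MT1X and MT2A, are not drawn.

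The metallothioneins stayed high. Of 11 members listed, 8 passed the filter on low counts, and all 8 were higher under ZnSO4 at 3 h and again at 6 h. Of all genes, 6.59% and 4.81% were called higher. MT1B, MT1E, MT1F and MT1M held almost no DMSO reads at either time. Among the groups compared here only the treated ones could carry them through the filter, so their rise was fixed by it. By edgeR 0 of 8 had a called difference of effects. This says little for members with few DMSO reads, whose SE was 1.36 for MT1F, 1.92 for MT1E and 2.07 for MT1M. MT1X stood at 6.3, 6.92 and 8.53 CPM in the DMSO libraries at 3 h and at 1148, 1367 and 1300.0 CPM in the ZnSO4 libraries. At 6 h it stood at 6.91, 7.92 and 6.49 CPM in DMSO and at 1150.0, 1419 and 1291 CPM in ZnSO4. The treated libraries of the 2 times overlapped and the treatments did not. Its effect was 7.48 ± 0.13 (log2, SE) at 3 h and 7.50 ± 0.13 at 6 h, and the 95% interval of the difference was -0.52 to 0.56. MT2A, the most widely expressed human metallothionein, stood at 616, 751 and 749.6 CPM under ZnSO4 at 3 h and at 819.6, 1050.0 and 979 CPM at 6 h, against 2.3, 2.47 and 2.02 and then 1.03, 1.55 and 2.06 CPM in DMSO. Every treated library was higher at 6 h than at 3 h, but the difference of effects, 1.00 ± 0.54, was not called (adjusted p = 0.47), since the 3 DMSO libraries held only 39 counts at 3 h and 29 at 6 h. The estimate of the difference lay below 0 in 4 of the 8 metallothioneins, none of them called. The ratio of ZnSO4 to DMSO went from 1360-fold (95% counting interval 930 to 2090) to 995-fold (771 to 1310) for MT1G, a difference of -0.42 ± 0.80. For MT1H it went from 3010-fold (833 to 24900) to 1240-fold (654 to 2720), on 2 and 9 DMSO counts. MT1E and MT1F, with 0 DMSO counts at 3 h, also had estimates below 0.

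Where DMSO held few or no reads, the treated libraries alone carry the information. Between 3 h and 6 h of ZnSO4, 6 of the 8 metallothioneins rose further (4.59% of all genes did): MT1H by 0.76 ± 0.079 (log2, SE), MT1F by 0.72 ± 0.15, MT1M by 0.67 ± 0.17, MT1G by 0.60 ± 0.13, MT2A by 0.43 ± 0.083 and MT1E by 0.33 ± 0.10. MT1H averaged 351 ± 16.7 CPM (SD, n = 3) at 3 h and 596 ± 61.3 CPM at 6 h. MT1X changed by 0.015 ± 0.075 (adjusted p = 0.94) and MT1B by 0.86 ± 0.40 (adjusted p = 0.19). MT1E had 0 counts in the 3 DMSO libraries at 3 h and 2404 in the ZnSO4 libraries, at least 586-fold higher against a floor of 3 counts over the group. The copies of this family are near-identical, so reads may have been split among them, and single members are uncertain. In these bulk samples, fewer cells expressing a gene and less RNA per cell cannot be told apart.

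The metal response element (TGCACNC or TGCGCNC, both strands) is shown in capitals in the stretches just before the transcription start of MT1X and MT2A, whose rise lasted, and of SLC30A1, whose rise shrank. Sequences are from the RefSeq promoter table (GRCh38.p14), 5′ to 3′ on the gene's strand.
MT1X (chr16:56682300-56682469, plus strand): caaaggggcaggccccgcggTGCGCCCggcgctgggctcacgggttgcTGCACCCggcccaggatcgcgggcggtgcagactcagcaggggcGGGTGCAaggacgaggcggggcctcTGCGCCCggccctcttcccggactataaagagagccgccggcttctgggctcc
MT2A (chr16:56608414-56608583, plus strand): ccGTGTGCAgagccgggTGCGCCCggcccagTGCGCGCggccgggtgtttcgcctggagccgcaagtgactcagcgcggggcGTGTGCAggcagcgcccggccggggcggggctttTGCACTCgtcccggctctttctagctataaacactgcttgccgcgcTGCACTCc
SLC30A1 (chr1:211579162-211579261, minus strand): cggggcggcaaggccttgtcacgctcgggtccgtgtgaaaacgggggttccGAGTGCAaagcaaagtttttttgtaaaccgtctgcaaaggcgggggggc
The printed stretches hold 4 matches in MT1X, 6 in MT2A and 1 in SLC30A1. At least 1 match lay within 250 bases before the start in 4 of 4 metallothioneins found in the table and in 40.5% of the 9983 tested genes found there. A match is a description of letters and not of a bound site.

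SLC30A1, the zinc exporter of the plasma membrane, was the only 1 of 7 tested SLC30 genes with a called difference (2.18% of all genes). It stood at 64, 75.7 and 71.6 CPM in DMSO and 515, 587 and 617 CPM in ZnSO4 at 3 h, and at 58.8, 53.2 and 73 CPM in DMSO and 249, 265 and 293 CPM in ZnSO4 at 6 h. The treated libraries stayed above every DMSO library at both times, and all 3 at 6 h lay below all 3 at 3 h. The effect went from 3.03 ± 0.074 to 2.13 ± 0.077, a difference of -0.90 ± 0.11 (adjusted p = 7.8e-09). Of its rise in CPM at 3 h, 41.3% remained at 6 h. Among the 11 tested SLC39 importers 0 differences were called by edgeR. SLC39A10, an importer, was lower by a like amount at both times, -1.14 ± 0.12 at 3 h and -1.28 ± 0.12 at 6 h, with a 95% interval of the difference of -0.49 to 0.22.

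**Figure D2:**
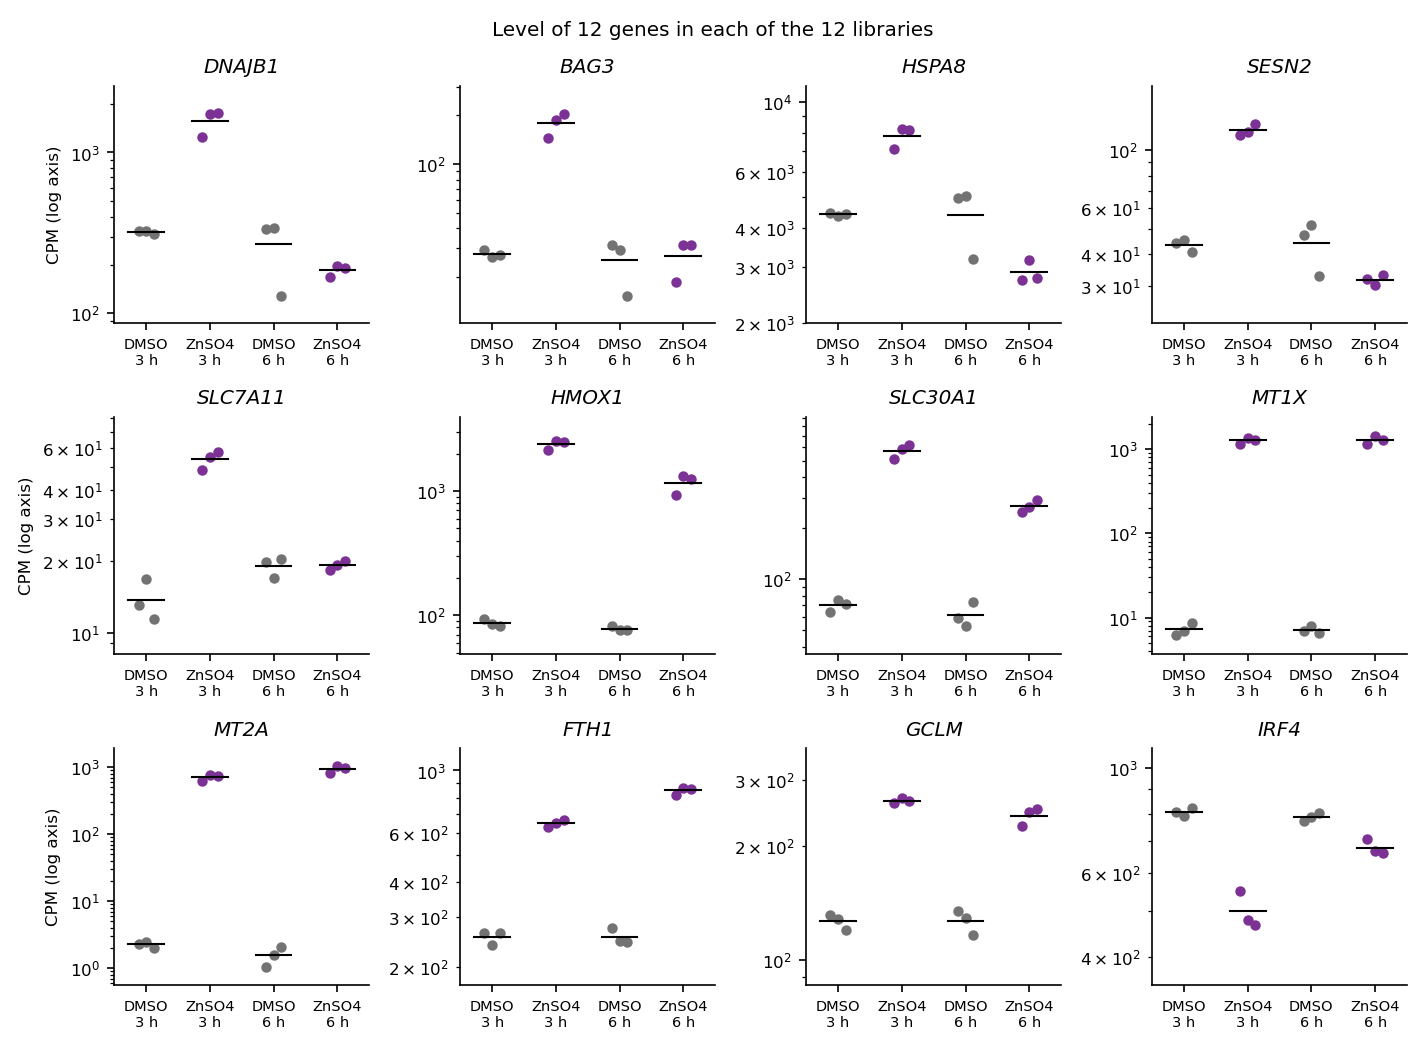
CPM (log axis) of 12 genes in each of the 12 libraries; grey points are DMSO libraries, purple points are ZnSO4 libraries and bars are group means. DNAJB1, BAG3 and SESN2 return to the DMSO level or below it at 6 h, HMOX1 and SLC30A1 stay high but lower than at 3 h, and MT1X, MT2A, FTH1 and GCLM stay high. The third DMSO library at 6 h is the lowest of its group for DNAJB1, BAG3, HSPA8 and SESN2.

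Many chaperone genes were higher at 3 h and near or below DMSO at 6 h. Called differences below 0 were found in 6 of 12 HSP70 chaperones and cofactors, 5 of 10 HSP40 cochaperones and 10 of 17 genes of the list of HSP90, HSP60 and small heat shock proteins, against 1.56% of all genes, and 0 were above 0 in these lists. At 3 h, 7, 6 and 14 members of these lists were higher under ZnSO4 and 0 lower. At 6 h, 1, 2 and 8 were higher (1, 1 and 7 without the third DMSO library at 6 h) and 2, 1 and 2 lower. Of all genes, 6.59% were higher at 3 h, 4.81% higher at 6 h and 4.51% lower at 6 h. The median difference was -0.38, -0.47 and -0.28, against -0.0039 over all genes. Without the third DMSO library at 6 h the called counts were again 6, 5 and 10.

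DNAJB1, the HSP40 that hands substrates to HSP70, had the lowest called difference among the named genes. It stood at 326, 324 and 311 CPM in DMSO and 1249, 1724 and 1749 CPM in ZnSO4 at 3 h. At 6 h the DMSO libraries held 335, 340.5 and 129 CPM and the ZnSO4 libraries 168, 197 and 192 CPM. ZnSO4 at 6 h was thus below the first and second DMSO libraries and above the third. The effect turned from 2.30 ± 0.15 to -0.53 ± 0.16, a difference of -2.83 ± 0.22 (adjusted p = 4.8e-15). Without the third DMSO library the 6 h effect was -0.87 ± 0.13 (adjusted p = 1.1e-06) and the difference -3.17 ± 0.17. BAG3, which couples HSP70 to the disposal of damaged proteins, stood at 29.2, 26.5 and 27.4 CPM in DMSO and 145, 186 and 205 CPM in ZnSO4 at 3 h, and at 31.3, 29.4 and 15.3 and 18.5, 31.4 and 31.3 CPM at 6 h. The groups did not overlap at 3 h and did at 6 h, with effects of 2.69 ± 0.13 and 0.084 ± 0.17 and a difference of -2.61 ± 0.22 (adjusted p = 6.4e-14).

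HSPA8, the constitutive HSP70 and the chaperone with the highest counts named here, went from a rise to a fall. Its DMSO libraries held 4444, 4340.0 and 4419 CPM at 3 h against 7078, 8186 and 8171 CPM in ZnSO4. At 6 h they held 4980.0, 5040.0 and 3178 CPM against 2737, 3165 and 2765 CPM in ZnSO4, with all 3 treated libraries below all 3 of DMSO. The effect changed from 0.83 ± 0.091 to -0.61 ± 0.091, a difference of -1.44 ± 0.13 (adjusted p = 4.7e-13). The pseudogenes HSPA8P1 and HSPA8P7, with differences of -1.53 ± 0.21 and -1.96 ± 0.54, can share reads with HSPA8 and are uncertain. HSPA8P7 lost its call in 8 of 12 fits that left out 1 library, with adjusted p up to 0.15.

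HSPA6, a strictly inducible HSP70, kept part of its rise. It was nearly silent in DMSO, with 3.38, 2.8 and 1.8 CPM at 3 h and 3.38, 1.72 and 2.69 CPM at 6 h. Under ZnSO4 it stood at 92.7, 122 and 133 CPM at 3 h and at 13.6, 33.6 and 33.8 CPM at 6 h, where the first library was the lowest. The difference was -2.06 ± 0.54 (adjusted p = 0.022), and 21.5% of the 3 h rise in CPM remained. Its call was lost without any 1 of 4 DMSO libraries, with adjusted p up to 0.18. SERPINH1, the collagen chaperone of the endoplasmic reticulum, kept 31.3%: its ZnSO4 libraries held 258, 295 and 348 CPM at 3 h and 132, 161 and 157 CPM at 6 h, against 64.8, 67.3 and 64.9 and 85, 81.1 and 63 CPM in DMSO. All treated libraries lay above all DMSO libraries at both times (difference -1.23 ± 0.13, adjusted p = 2.7e-10).

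In other chaperone genes the 6 h estimate was close to 0. The nucleotide exchange factor HSPH1 went from 1.37 ± 0.073 to 0.16 ± 0.074 and the HSP40 DNAJA1 from 0.92 ± 0.058 to 0.093 ± 0.059. DNAJB4 went from 1.84 ± 0.14 to -0.059 ± 0.16 and the HSP90 activator AHSA1 from 0.46 ± 0.054 to -0.10 ± 0.056. In each of these 4 genes the groups were separate at 3 h and overlapped at 6 h.

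Heat shock elements, shown because these genes moved together, are in capitals as pairs of inverted units (GAANNTTC or TTCNNGAA, both strands) in the stretches before the start of 4 chaperone genes.
DNAJB1 (chr19:14518398-14518527, minus strand): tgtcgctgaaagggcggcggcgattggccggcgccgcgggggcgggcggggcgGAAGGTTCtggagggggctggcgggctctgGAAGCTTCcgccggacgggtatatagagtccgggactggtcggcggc
HSPA8 (chr11:123062137-123062266, minus strand): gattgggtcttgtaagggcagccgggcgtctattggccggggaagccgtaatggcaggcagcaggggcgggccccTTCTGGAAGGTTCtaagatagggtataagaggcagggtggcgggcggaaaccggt
HSPA6 (chr1:161524410-161524539, plus strand): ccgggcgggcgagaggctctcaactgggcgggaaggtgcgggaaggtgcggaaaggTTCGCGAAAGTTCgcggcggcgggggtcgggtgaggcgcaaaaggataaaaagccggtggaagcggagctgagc
SERPINH1 (chr11:75562123-75562252, plus strand): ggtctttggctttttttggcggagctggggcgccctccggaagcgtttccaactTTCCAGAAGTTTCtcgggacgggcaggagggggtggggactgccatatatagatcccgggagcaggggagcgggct
The matches of HSPA8, HSPA6 and SERPINH1 overlap and form runs of 3 units. These 4 genes were chosen because they hold a match. DNAJB1 has 3 listed starts and SERPINH1 2, and in each only the start shown held a pair. BAG3, HSPH1 and AHSA1, which moved with them, held none in the same search, and DNAJA1 and DNAJB4 held 1 pair each, DNAJB4 at 1 of its listed starts. A pair of units was found in 36 of 175 genes with a called difference below 0 that are in the table (20.6%), in 23 of 164 persisting rises and in 12.2% of the 9983 tested genes. The run of 3 units was found in 8 of the 175 (4.57%), in 4 of the 164 (2.44%) and in 0.461% of the tested genes. These shares are descriptions and were not tested.

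Genes known as ATF4 targets moved together. Of 30 tested, 16 had a called difference below 0 and 0 above 0, and the estimate was below 0 in all 30. At 3 h, 24 were higher under ZnSO4 and 0 lower, whereas at 6 h 7 were higher and 3 lower. Of all genes, 1.56% had a difference called below 0, 6.59% were higher at 3 h, 4.81% higher at 6 h and 4.51% lower at 6 h. The median effect was 0.44 at 3 h and -0.048 at 6 h. Without the third DMSO library at 6 h, 17 were called, and 4 were higher and 4 lower at 6 h. ATF4 itself, which is controlled largely through translation, stood at 442, 507 and 451 CPM under ZnSO4 at 3 h and 401, 437 and 388 CPM at 6 h. It was called higher at 3 h (0.20 ± 0.052, adjusted p = 0.0042) and not at 6 h (-0.012 ± 0.052). Its difference, -0.21 ± 0.074, was not called (adjusted p = 0.14), but was without the third DMSO library at 6 h (-0.27 ± 0.076, adjusted p = 0.043).

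SESN2, a sestrin that restrains mTORC1 when amino acids are short, stood at 44.1, 45.3 and 40.9 CPM in DMSO and 114, 118 and 127 CPM in ZnSO4 at 3 h. At 6 h it stood at 47.5, 51.8 and 32.9 CPM in DMSO and 31.9, 30.3 and 33.3 CPM in ZnSO4. The effect turned from 1.46 ± 0.093 to -0.46 ± 0.11, a difference of -1.92 ± 0.15 (adjusted p = 1.8e-15). CHAC1, which degrades glutathione, rose modestly at 3 h (65.8, 84.8 and 80.2 against 55.9, 50.1 and 42 CPM in DMSO) and was low at 6 h (24.3, 21.2 and 16.7 CPM). Its DMSO libraries at 6 h held 54.2, 48 and 19 CPM, and the third lay among the treated ones. The difference was -1.61 ± 0.25 (adjusted p = 1.2e-05), and -1.95 ± 0.21 without that library. ATF3, a stress-induced repressor, went from 27.7, 37.1 and 37.5 to 12, 9.73 and 9.51 CPM under ZnSO4 while DMSO held 7.68, 6.76 and 7.86 and then 10.3, 10.3 and 6.17 CPM (difference -1.99 ± 0.24, adjusted p = 1.2e-08).

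The amino acid carriers followed the same course. SLC7A11, the cystine importer that feeds glutathione synthesis, stood at 13.1, 16.8 and 11.4 CPM in DMSO and 48.3, 55.2 and 57.5 CPM in ZnSO4 at 3 h, and at 19.9, 17 and 20.4 and 18.3, 19.2 and 20 CPM at 6 h. Its rise of 1.95 ± 0.11 had gone by 6 h (0.0034 ± 0.13), a difference of -1.95 ± 0.18 (adjusted p = 5.2e-13). SLC7A5, the large neutral amino acid carrier, held 1151, 1206 and 1278 CPM under ZnSO4 at 3 h and 588, 555 and 592 CPM at 6 h, with DMSO at 648, 650.5 and 638 and 629.9, 611 and 665 CPM. All treated libraries were above DMSO at 3 h and below it at 6 h. SLC38A2, a neutral amino acid carrier, had a difference of -1.11 ± 0.10 (adjusted p = 5.2e-13). DDIT4, an inhibitor of mTORC1, fell from 335, 359 and 380.5 to 88.8, 77.6 and 66.5 CPM in ZnSO4, and of its DMSO libraries at 6 h (96.9, 106 and 51.1 CPM) the third alone lay below them. Its 6 h effect was -0.12 ± 0.14 (adjusted p = 0.67), and -0.39 ± 0.12 without that library (adjusted p = 0.037). STC2, a secreted glycoprotein, turned from 0.81 ± 0.076 to -0.55 ± 0.087, with no overlap of the groups at either time.

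Other genes of the ATF4 list or near it had smaller differences. TRIB3, a pseudokinase induced by ATF4 and 1 of the 16 called targets, had a difference of -0.53 ± 0.092 (adjusted p = 7e-05). DDIT3, the transcription factor CHOP, at 9.01 and 6.02 CPM under ZnSO4, had a difference of -0.50 ± 0.27 that was not called (adjusted p = 0.48). ASNS, asparagine synthetase, was not called at 3 h, at 6 h or in the difference (-0.26 ± 0.11, adjusted p = 0.28). Among 20 cytosolic tRNA synthetases 1 difference was called, that of GARS1 (-0.25 ± 0.063), against 1.56% of all genes called below 0. Its call was lost without any 1 of 3 libraries and with library totals. Among 26 chaperones and sensors of the endoplasmic reticulum, ERN1 (the sensor IRE1) alone was called (-0.54 ± 0.13, adjusted p = 0.0081), against the same 1.56%. Its call was lost without either of 2 libraries. Between the times its estimate changed by -0.27 ± 0.09 in ZnSO4 and by 0.27 ± 0.092 in DMSO, the latter not called.

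The ATF4 element (TGATGNAA, both strands) is shown in capitals in the 250 bases before the start of CHAC1, whose effect turned from a rise to a fall.
CHAC1 (chr15:40953221-40953470, plus strand): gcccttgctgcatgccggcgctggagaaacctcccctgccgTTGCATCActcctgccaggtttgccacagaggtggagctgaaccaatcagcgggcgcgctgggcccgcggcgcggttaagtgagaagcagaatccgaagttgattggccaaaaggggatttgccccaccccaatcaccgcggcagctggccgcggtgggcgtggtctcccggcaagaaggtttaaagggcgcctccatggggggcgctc
Among the genes named above the element was also found in ATF3, ASNS and GARS1, in each at 1 of its listed starts. It was not found in SESN2, DDIT4, STC2, SLC7A5, SLC38A2, TRIB3 or DDIT3. This element was found in 4 of 33 genes with a called difference of at least 2-fold below 0 (12.1%), in 9 of 175 genes called below 0 (5.14%), in 1 of 164 persisting rises (0.61%) and in 2.23% of the tested genes in the table.

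The haem, iron and antioxidant genes divided. HMOX1, the haem oxygenase that frees iron from haem, stood at 94.1, 84.7 and 81.5 CPM in DMSO and 2145, 2544 and 2490.0 CPM in ZnSO4 at 3 h, and at 81.6, 75.8 and 76.6 and 928, 1334 and 1242 CPM at 6 h. All treated libraries at 6 h were below those at 3 h and far above DMSO. The effect shrank from 4.78 ± 0.12 to 3.90 ± 0.12, a difference of -0.88 ± 0.17 (adjusted p = 0.00035), and 47.3% of the rise in CPM remained. BACH1, the haem-binding repressor of HMOX1, was higher at 3 h (0.59 ± 0.068), and its 6 h effect was -0.024 ± 0.071 (difference -0.61 ± 0.10). FTH1, the ferritin heavy chain that stores iron, went the other way. It stood at 629.9, 647 and 667 CPM under ZnSO4 at 3 h and at 821, 867 and 859 CPM at 6 h, against 264, 239 and 263 and 275, 247 and 244 CPM in DMSO. Its effect grew from 1.35 ± 0.074 to 1.73 ± 0.074, a difference of 0.38 ± 0.10 (adjusted p = 0.025). That call was lost in 8 of 12 fits without 1 library (adjusted p up to 0.1) and by DESeq2.

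Of 18 NRF2 targets, 13 were higher at 3 h and 9 at 6 h (8 without the third DMSO library at 6 h). Of all genes, 6.59% were higher at 3 h and 4.81% at 6 h. In this list 7 were persisting (387 of all 14460 genes) and 3 had a called difference below 0 (1.56% of all genes). GCLM, a subunit of the enzyme that limits glutathione synthesis, was among the persisting genes: 260.0, 269 and 264 CPM under ZnSO4 at 3 h and 227, 247 and 251 CPM at 6 h, against 132, 128 and 120.1 and 135, 129 and 116 CPM in DMSO. Its effects were 1.06 ± 0.064 and 0.93 ± 0.065, with a 95% interval of the difference of -0.31 to 0.053. TXNRD1, thioredoxin reductase, shrank from 0.75 ± 0.065 to 0.30 ± 0.066 and remained above DMSO in every library. SLC7A11, given above, and the glutathione conjugate exporter ABCC1 (-0.36 ± 0.10) were the others called. The call of ABCC1 was lost in 9 of 12 fits without 1 library (adjusted p up to 0.19).

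Of 18 genes of the hypoxia response, 14 were higher at 3 h (6.59% of all genes) and 9 at 6 h (4.81%). In this list 6 had a called difference below 0 (1.56% of all genes). VEGFA, the angiogenic growth factor, stood at 255, 249 and 261 CPM under ZnSO4 at 3 h and at 158, 137 and 149.5 CPM at 6 h, against 132, 125 and 142 and 145, 146 and 124 CPM in DMSO. The groups were separate at 3 h and overlapped at 6 h (difference -0.84 ± 0.086, adjusted p = 5.3e-11). The peptide hormone ADM had a difference of -0.84 ± 0.10, the glycolytic regulator PFKFB3 of -0.69 ± 0.14 and the glucose transporter SLC2A1 of -0.66 ± 0.13. EGLN1, the oxygen-sensing prolyl hydroxylase, met both definitions at once: its difference of -0.37 ± 0.11 was called (adjusted p = 0.049) and its 95% interval, -0.58 to -0.15, lay within the limit of 1.5-fold. That call was lost in 9 of 12 fits without 1 library, with adjusted p up to 0.21.

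Immediate early genes, which encode short-lived transcription factors, were up at 3 h and mostly near DMSO at 6 h. Of 23 tested, 17 were higher and 1 lower at 3 h, and 4 were higher at 6 h (2 without the third DMSO library at 6 h). A called difference below 0 was found in 8. Of all genes, 6.59% were higher and 4.16% lower at 3 h, 4.81% higher at 6 h and 1.56% called below 0. FOS stood at 2.92, 4.29 and 4.04 CPM in DMSO and 13.9, 17.1 and 23.2 CPM in ZnSO4 at 3 h, and at 3.82, 5.34 and 7.28 and 4.05, 7.08 and 8.03 CPM at 6 h. The groups were separate at 3 h and overlapped at 6 h (difference -2.07 ± 0.45, adjusted p = 0.0027). JUN went from 0.90 ± 0.087 to 0.25 ± 0.093 (difference -0.65 ± 0.13, adjusted p = 0.00064). EGR1 was called at both times, 2.60 ± 0.28 and 1.08 ± 0.33, and its difference of -1.52 ± 0.47 was not called (adjusted p = 0.079). That difference was called without either of 2 ZnSO4 libraries, with no filter and in a fit of the 12 libraries, and the 6 h call was lost without the third DMSO library (0.91 ± 0.36, adjusted p = 0.13). IER5, an activator of HSF1, stood at 149, 187 and 183 CPM at 3 h and 88.5, 96 and 94.4 CPM at 6 h under ZnSO4, above DMSO in every library at both times (difference -0.93 ± 0.11). Its 6 h effect of 0.29 ± 0.081 (adjusted p = 0.011) was 0.25 ± 0.089 without the third DMSO library at 6 h (adjusted p = 0.086).

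Among 15 ERK feedback genes, 9 were higher at 3 h (6.59% of all genes) and 6 at 6 h (4.81%). In this list 3 had a called difference below 0 (1.56% of all genes), all of them dual-specificity phosphatases. DUSP5, which binds nuclear ERK, went from 1.03 ± 0.074 to 0.30 ± 0.075, DUSP1 from 0.85 ± 0.17 to -0.13 ± 0.20 and DUSP2 from 0.70 ± 0.12 to -0.064 ± 0.13. The call of DUSP1 was lost in 6 of 12 fits without 1 library (adjusted p up to 0.13), and that of DUSP2 without the third DMSO library at 6 h (adjusted p = 0.067). DUSP10, which acts on stress-activated kinases, was persisting, with effects of 0.86 ± 0.14 and 0.85 ± 0.14.

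Regulators of apoptosis took different courses. BBC3 (PUMA), a BH3-only activator of cell death, stood at 8.29, 6.92 and 4.71 CPM in DMSO and 20.1, 16.1 and 19.9 CPM in ZnSO4 at 3 h, and at 6.32, 8.44 and 8.07 and 7.58, 5.53 and 6.39 CPM at 6 h, where the groups overlapped (difference -1.64 ± 0.24, adjusted p = 1.9e-06). PMAIP1 (NOXA), which neutralises MCL1, went from 0.86 ± 0.073 to -0.14 ± 0.08. MCL1, a survival factor on which myeloma cells are known to rely, had a difference of -0.35 ± 0.068 (adjusted p = 0.00064). BMF, another BH3-only gene, was persisting: 122, 125 and 131 CPM under ZnSO4 at 3 h and 115, 117 and 124 CPM at 6 h, against 53.4, 57.5 and 66.5 and 68.5, 68.5 and 69 CPM in DMSO, with a difference of -0.32 ± 0.10 (adjusted p = 0.086). In all, 3 of 14 BCL2 family genes had a called difference below 0. Of 19 p53 targets, 4 were called below 0 (BBC3, PMAIP1, MDM2 and BTG2) and 1 above 0, SESN1 (0.48 ± 0.12). Of all genes, 1.56% were called below and 0.622% above 0. The call of BTG2 (-0.30 ± 0.077) was lost in 4 of 12 fits without 1 library, and that of SESN1 in 5.

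Histone demethylases were examined because GSK-J4, the other agent of the series, inhibits KDM6A and KDM6B. KDM6B stood at 24.9, 24.1 and 29.1 CPM under ZnSO4 at 3 h and at 14.6, 16.1 and 16.6 CPM at 6 h, against 16.4, 15.8 and 15.5 and 17.5, 14.3 and 17.9 CPM in DMSO (difference -0.78 ± 0.19, adjusted p = 0.013). The groups were separate at 3 h only. KDM6A had a difference of -0.58 ± 0.15 and KDM3A of -0.45 ± 0.11. These 3 were the called genes among 18 JmjC demethylases, against 1.56% of all genes called below 0. KDM6B lost its call without the third ZnSO4 library at 3 h (adjusted p = 0.066), and KDM6A without any 1 of 3 libraries (adjusted p up to 0.14). KDM3A kept it in 10 of 12 fits without 1 library (adjusted p up to 0.076).

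Differences above 0 came mostly from falls that had lifted by 6 h. The chemokine receptor gene CCR2 had the highest called difference among the named genes, at low counts. It stood at 2.46, 2.47 and 3.59 CPM in DMSO and 0.99, 0.439 and 0.37 CPM in ZnSO4 at 3 h, and at 1.76, 3.27 and 3.17 and 3.52, 4.2 and 4.59 CPM at 6 h. The groups did not overlap at either time, below DMSO at 3 h (-2.27 ± 0.44) and above it at 6 h (0.60 ± 0.31, not called). The difference was 2.87 ± 0.54 (adjusted p = 0.00036). TLR4, the endotoxin receptor, and APAF1, which assembles the apoptosome, turned likewise, with differences of 1.02 ± 0.21 and 0.94 ± 0.20. Their 6 h effects were no longer called without the third DMSO library (adjusted p = 0.24 and 0.11). CAV2, a caveolar protein, and CBLB, a ubiquitin ligase, overlapped DMSO at 6 h. Their differences of 0.96 ± 0.26 and 0.95 ± 0.27 were each lost in 8 of 12 fits without 1 library (adjusted p up to 0.14 and 0.21).

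IRF4, the transcription factor on which myeloma cells are known to depend, was reduced at 3 h and less so at 6 h. The DMSO libraries held 806, 791 and 822 CPM at 3 h and 770.3, 786 and 801 CPM at 6 h, and the ZnSO4 libraries 551, 478 and 467 and then 707, 667 and 659.9 CPM. Every treated library lay below every DMSO library at both times and higher at 6 h than at 3 h. The effect went from -0.69 ± 0.061 to -0.21 ± 0.06, a difference of 0.48 ± 0.086 (adjusted p = 0.00012). The 6 h effect was -0.20 ± 0.067 without the third DMSO library (adjusted p = 0.056). MEF2C, a lineage factor of B cells, went from -0.47 ± 0.064 to 0.0011 ± 0.064. They were the called genes among 16 of plasma cell identity, against 0.622% of all genes called above 0. In that list 3 were lower at 3 h and 8 at 6 h (6 without the third DMSO library at 6 h). Of all genes, 4.16% were lower at 3 h and 4.51% at 6 h. PRDM1, the plasma cell regulator BLIMP1, had effects of -0.18 ± 0.066 and -0.30 ± 0.068 and a difference that was not called (-0.12 ± 0.094, adjusted p = 0.67). MYC was lower at both times, -0.28 ± 0.088 and -0.38 ± 0.089. Its 6 h effect was -0.21 ± 0.088 without the third DMSO library (adjusted p = 0.15).

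A small set was called at 6 h only, or had a larger effect then. CLU, the secreted chaperone clusterin, stood at 4.91, 5.28 and 3.59 CPM in DMSO and 15.2, 14.4 and 14.7 CPM in ZnSO4 at 3 h, and at 4.41, 4.48 and 4.11 and 23.3, 34.5 and 27.5 CPM at 6 h. The treated libraries were above DMSO at both times and higher at 6 h in every library (difference 1.05 ± 0.30, adjusted p = 0.045), though the call was lost in 10 of 12 fits without 1 library (adjusted p up to 0.2). PACSIN3, an endocytic adaptor, was called at 6 h only, with 16.8, 13.3 and 14.3 CPM against 5.59, 5.17 and 4.11 CPM in DMSO and effects of 0.40 ± 0.20 and 1.57 ± 0.20. BCAR1, an adhesion scaffold, had effects of 0.03 ± 0.25 and 1.46 ± 0.24, and DNMT3A, a DNA methyltransferase, of -0.17 ± 0.21 and 1.01 ± 0.21. TRAF1, an adaptor of TNF receptors, went from -0.081 ± 0.20 to 0.98 ± 0.19. The call of the difference held in 8 of 12 fits without 1 library for TRAF1 (adjusted p up to 0.084) and in 9 for DNMT3A (up to 0.1). It held in 11 of 12 for BCAR1 (up to 0.15) and for PACSIN3 (up to 0.089). With no filter it was lost for TRAF1 and BCAR1. RASSF8 had a difference of 1.07 ± 0.30 that was lost in 9 of 12 fits without 1 library (adjusted p up to 0.19). Its 6 h effect was 0.51 ± 0.22 without the third DMSO library at 6 h (adjusted p = 0.17).

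Among the genes with the highest differences, ACTA2 and RPS18 were lower in every DMSO library at 6 h than at 3 h. ACTA2, smooth muscle actin, stood at 4.91, 4.12 and 7.18 CPM in DMSO at 3 h and at 2.35, 2.58 and 3.17 CPM at 6 h, while ZnSO4 held 3.13, 2.85 and 2.72 and 3.35, 4.64 and 5.25 CPM. RPS18, a ribosomal protein gene with many processed copies, went in DMSO from 503, 533 and 628 to 356, 370.2 and 422 CPM and in ZnSO4 from 442, 336 and 392 to 473, 511 and 505 CPM. KRT8P12, a keratin pseudogene that can share reads with its parent, had a difference of 0.94 ± 0.25 and overlapping treated libraries. Its call held in 7 of 12 fits without 1 library (adjusted p up to 0.14), and that of ACTA2 in 10 (up to 0.078). ACTA2 and RPS18 did not overlap between the times in DMSO, though neither was called there.

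**Figure D3:**
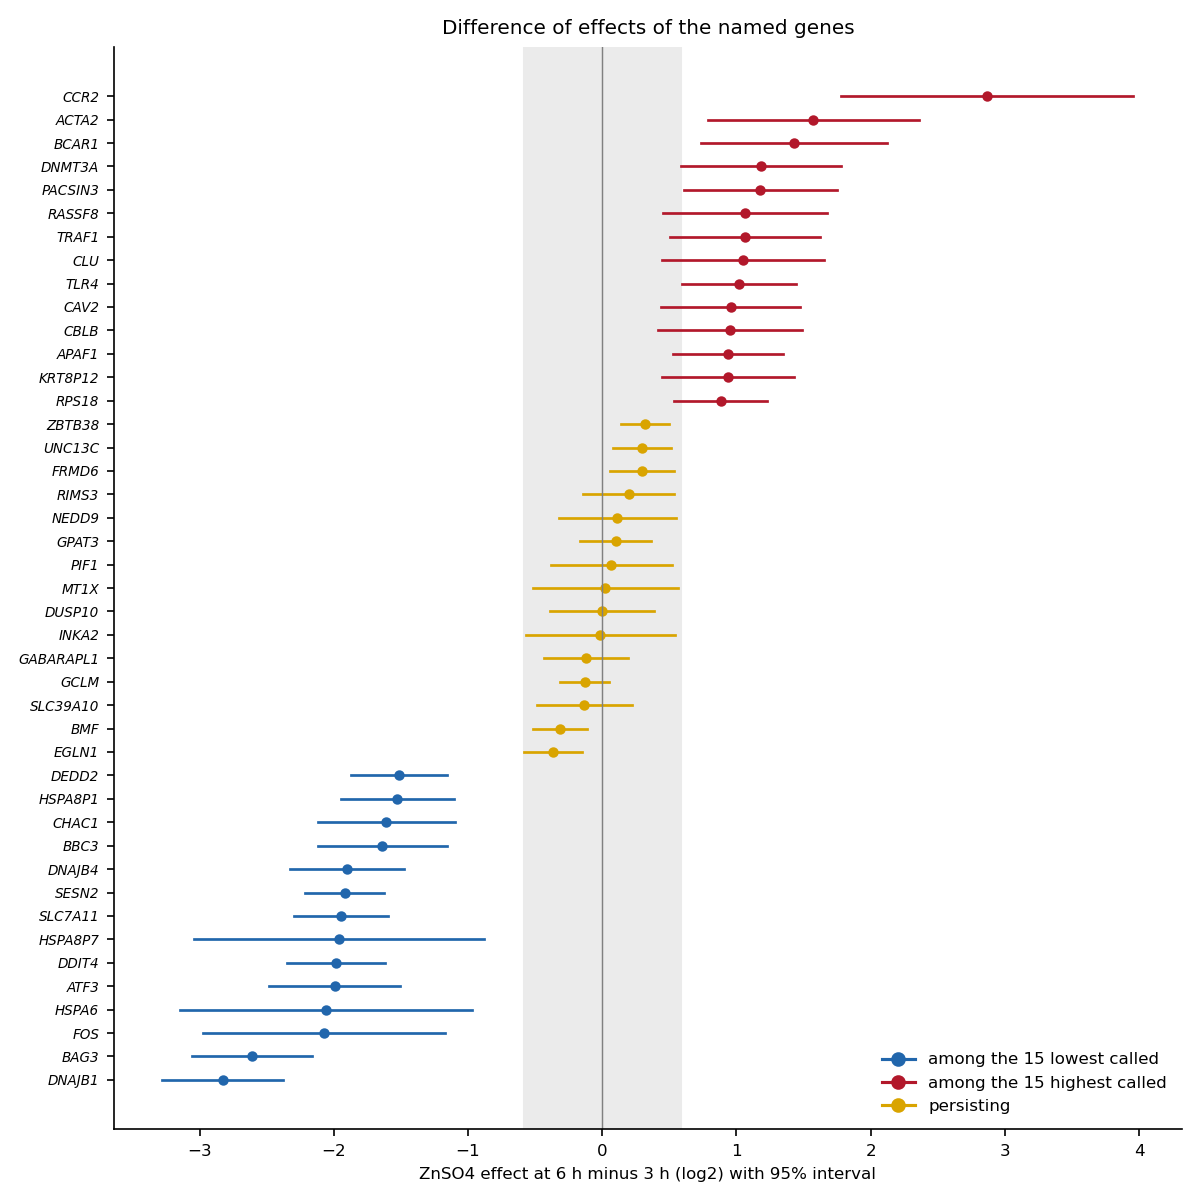
Difference of effects (6 h minus 3 h, log2) with its 95% interval for genes among the 15 lowest called (blue), genes among the 15 highest called (red) and 15 persisting genes (gold); the grey band is the limit of 1.5-fold either way. DNAJB1 is the lowest at -2.83 and CCR2 the highest at 2.87, and the intervals of the persisting genes lie within the band.

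Persistence was asked of the intervals and not of missing calls. A gene was counted as persisting if it was called at both times in the same direction and the 95% interval of its difference lay within 1.5-fold (0.585 in log2) either way. Of 540 genes called at both times, 510 had the same direction and 30 opposite ones, and 387 persisted, 204 as rises and 183 as falls. At a limit of 25% in place of 1.5-fold 233 persisted. The median width of the interval over all genes was 0.336 to each side, so small and steady effects of well-counted genes pass this rule most easily. Of 137 genes at least 2-fold higher at 3 h, 41 had a called difference below 0, 2 above 0 and 94 none, and only 7 persisted. Of the 387, 193 were also called at 24 h in the same direction. The counts of this paragraph were not repeated without the third DMSO library at 6 h.

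MT1X had the largest persisting rise. Next by its 3 h effect was GABARAPL1, an ATG8 protein of autophagosomes, at 37.5, 42.7 and 42.1 CPM under ZnSO4 at 3 h and 36.5, 40.3 and 40.2 CPM at 6 h, against 18.6, 16.2 and 18 and 18.4, 18.9 and 17.2 CPM in DMSO. The treated libraries of both times overlapped and stayed above DMSO (interval of the difference -0.43 to 0.19). The helicase PIF1 had effects of 1.13 ± 0.16 and 1.20 ± 0.15, and the lipid synthesis enzyme GPAT3 of 1.04 ± 0.093 and 1.14 ± 0.092. RIMS3, known from synaptic vesicle release, had effects of 0.87 ± 0.12 and 1.07 ± 0.12, and INKA2 of 0.87 ± 0.20 and 0.85 ± 0.19. Of 20 genes of autophagy and lysosome stress, 8 were higher at 3 h and 7 at 6 h (5 without the third DMSO library at 6 h). In this list 6 persisted, with 0 called differences by edgeR. Of all genes, 6.59% were higher at 3 h and 4.81% at 6 h, and 387 of 14460 persisted.

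The largest persisting falls were SLC39A10, given above, UNC13C, NEDD9, FRMD6 and ZBTB38. UNC13C, a vesicle priming factor, stood at 50.6, 53.1 and 45.1 CPM under ZnSO4 at 3 h and 67.2, 60.8 and 52.5 CPM at 6 h, against 94.8, 97.3 and 106 and 96.4, 95.7 and 101 CPM in DMSO. NEDD9, an adhesion scaffold, had effects of -0.86 ± 0.15 and -0.75 ± 0.15, and FRMD6, a FERM domain protein, of -0.83 ± 0.083 and -0.53 ± 0.085. ZBTB38, a zinc finger protein that binds methylated DNA, had a called difference of 0.32 ± 0.09 (adjusted p = 0.039) inside the limit, lost in 9 of 12 fits without 1 library (adjusted p up to 0.18). Among 22 genes of MYC and ribosome biogenesis, 12 were lower at 3 h, 11 at 6 h (5 without the third DMSO library at 6 h) and 8 persisted. Of all genes, 4.16% were lower at 3 h and 4.51% at 6 h, and 387 of 14460 persisted. UBTF, a factor of ribosomal RNA transcription, was the 1 called difference, from -0.21 ± 0.048 to 0.14 ± 0.048. Its 6 h effect was 0.12 ± 0.054 without the third DMSO library (adjusted p = 0.18).

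**Figure D4:**
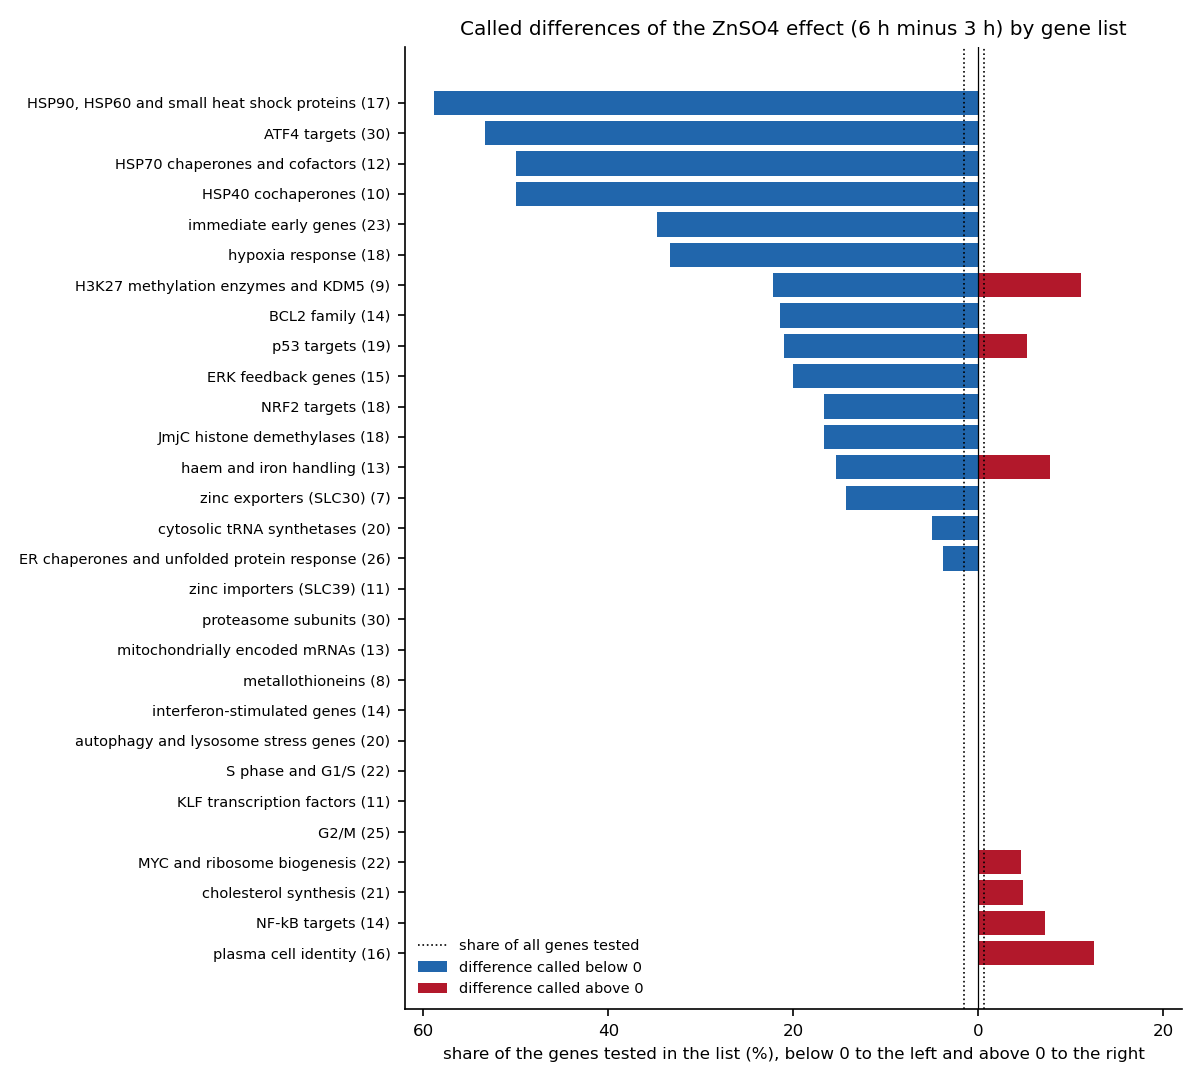
Share of the tested genes of each list with a called difference below 0 (blue, to the left) and above 0 (red, to the right), with the number tested in brackets; dotted lines are the shares of all genes, 1.56% and 0.622%. The chaperone lists and the ATF4 targets reach 50% or more below 0, and 9 of the lists drawn have none called; lists of cell type markers are not drawn.

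Lists without a called difference by edgeR were the metallothioneins, the SLC39 importers, 30 proteasome subunits, 25 G2/M genes, 22 genes of S phase and G1/S, 13 mitochondrially encoded mRNAs, 14 interferon-stimulated genes, 11 KLF factors and the autophagy list. The B cell, myeloid, stromal and endothelial, erythroid and epithelial markers, with 1 to 4 genes tested each, had none either. Without the third DMSO library at 6 h, 1 of 16 interferon-stimulated genes then tested and 1 of 3 B cell markers were called above 0, and the other lists here again had none. The lists were not counted by DESeq2 or in the remaining settings. None of the proteasome subunits was called at either time. Of 21 cholesterol synthesis genes 1 was called, MSMO1, a sterol demethylase (0.56 ± 0.11, adjusted p = 0.00062), and of 14 NF-kB targets TRAF1 alone. Of all genes, 0.622% were called above 0.

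The other times give the context, with each effect against DMSO of its own time. At 1 h 0.678% of genes were called, 72 (0.498%) higher and 26 (0.18%) lower. At 24 h 9.56% were called, 575 (3.98%) higher and 807 (5.58%) lower. Of the 225 genes with a difference below 0, 35 were called at 1 h and 66 at 24 h, where 29 were higher and 37 lower. DNAJB1 was near its 3 h effect at 1 h already (2.06 ± 0.16) and was not called at 24 h (0.33 ± 0.21). BAG3 and HSPH1 were not called at 24 h either. HSPA8 was higher than DMSO again at 24 h (0.36 ± 0.094, adjusted p = 0.0077), as was SLC7A11 (0.61 ± 0.10). SLC30A1 was at 2.44 ± 0.073 at 1 h and 2.39 ± 0.069 at 24 h, so its effect at 6 h was the lowest estimate of the 4 times. HMOX1 was at 2.36 ± 0.11 at 24 h, below its 6 h effect. The steps between these times were not tested here.

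**Figure D5:**
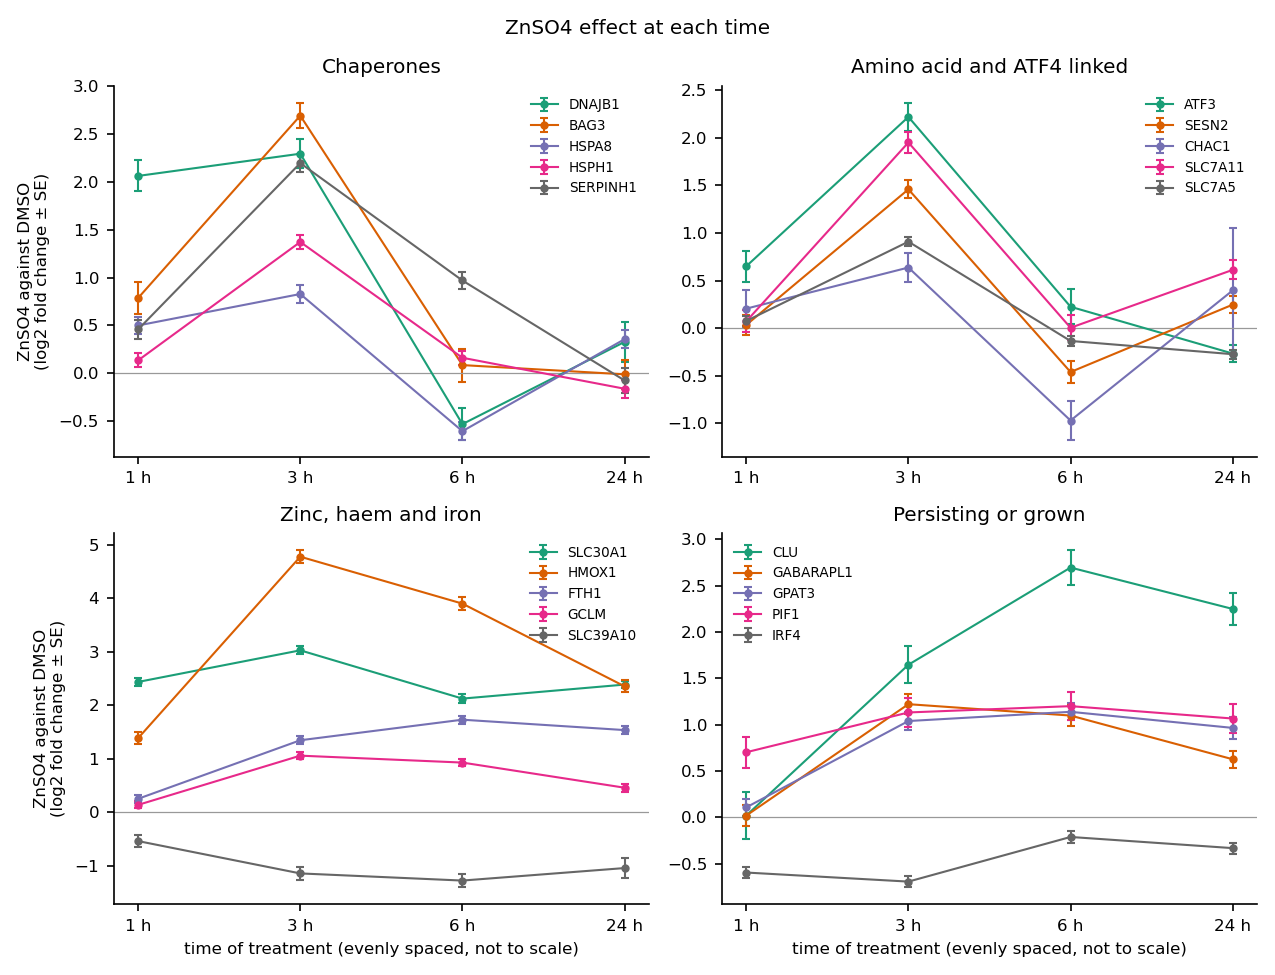
Log2 fold change of ZnSO4 against DMSO (± SE) at 1, 3, 6 and 24 h for 20 genes in 4 panels; times are evenly spaced. The chaperone and amino acid genes peak at 3 h and are near or below 0 at 6 h except SERPINH1, whereas SLC30A1, HMOX1, FTH1, GCLM, CLU, GABARAPL1, GPAT3 and PIF1 remain above 0 at 6 h and 24 h.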

How the data were processed

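RNA of 39 JJN3 libraries was sequenced after Trizol extraction and NEBNext Ultra library preparation, per the labels' protocols. The authors deposited raw counts per gene as whole numbers, and per the submitters' processing notes HISAT2 2.1.0 and the build hg19 were used. No source used here names the read counter or its annotation and strand handling, so overlapping and antisense genes cannot be told apart. Counts were fitted with edgeR 4.0.16 (R 4.3.3) by quasi-likelihood with TMM factors, filterByExpr at a minimum count of 10 and 1 coefficient per group. Adjusted p-values are Benjamini-Hochberg values over the 14460 genes tested, called under 0.05, and SE is the size of the log2 value over the square root of F. CPM are scaled by TMM factors, except in the sums of cell type markers, which use library totals. The 95% intervals of counts and folds cover counting error only. Genes were named by rule: the 15 highest and 15 lowest called differences at an average log2 CPM of at least 1, the 10 largest persisting rises and 5 falls, a fixed list, and up to 4 members per list. The members, the 36 gene lists and the rules were chosen with earlier results of these data known. Of 592 list entries 587 matched an identifier. HSPA1A and HSPA1B are not analysed here, and some genes that meet the rule are counted but not reported by name. Replicates compared gene by gene held no duplicates. Alternatives were RLE factors, library totals, no filter, DESeq2 1.42.0, fits of fewer libraries and leaving out each of 12 libraries. The fit was tested on simulated data. Promoters are from RefSeq (GRCh38.p14), another build than that of the counts, matched by symbol for 9983 genes.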

Additional observations from a re-analysis of the deposited data

Results flagged for a closer look

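The ZnSO4 effects at 3 h and 6 h differ by the test of the difference itself in 315 genes, which singled them out for a closer look. The values of the named genes among them are log2 differences of effects, 6 h minus 3 h. Among the chaperone genes the difference was -2.83 for DNAJB1, -2.61 for BAG3, -2.06 for HSPA6, -1.44 for HSPA8, -1.96 for HSPA8P7, -1.53 for HSPA8P1, -1.90 for DNAJB4, -1.23 for SERPINH1, -1.21 for HSPH1, -0.86 for HSPA4L, -0.83 for DNAJA1, -0.66 for CHORDC1, -0.61 for DNAJB6 and -0.56 for AHSA1. Among the ATF4-linked and amino acid genes the difference was -1.99 for ATF3, -1.98 for DDIT4, -1.95 for SLC7A11, -1.92 for SESN2, -1.61 for CHAC1, -1.36 for STC2, -1.11 for SLC38A2, -1.04 for SLC7A5, -0.53 for TRIB3 and -0.25 for GARS1. It was -0.54 for ERN1, a sensor of the endoplasmic reticulum. Among the immediate early genes and phosphatases the difference was -2.07 for FOS, -0.65 for JUN, -0.93 for IER5, -0.30 for BTG2, -0.98 for DUSP1, -0.77 for DUSP2 and -0.72 for DUSP5. Among the zinc, haem, iron, redox and hypoxia genes the difference was -0.90 for SLC30A1, -0.88 for HMOX1, -0.61 for BACH1, 0.38 for FTH1, -0.45 for TXNRD1, -0.36 for ABCC1, -0.84 for VEGFA, -0.84 for ADM, -0.69 for PFKFB3, -0.66 for SLC2A1 and -0.37 for EGLN1. Among the apoptosis and p53-linked genes the difference was -1.64 for BBC3, -1.52 for DEDD2, -1.0017 for PMAIP1, -0.35 for MCL1, 0.48 for SESN1 and 0.94 for APAF1. Among the chromatin and transcription regulators the difference was -0.78 for KDM6B, -0.58 for KDM6A, -0.45 for KDM3A, 0.39 for EED, 1.18 for DNMT3A, 0.35 for UBTF, 0.32 for ZBTB38, 0.48 for IRF4 and 0.47 for MEF2C. For the remaining genes it was 0.56 for MSMO1, 0.88 for RPS18, 0.94 for KRT8P12, 0.95 for CBLB, 0.96 for CAV2, 1.02 for TLR4, 1.05 for CLU, 1.06 for TRAF1, 1.07 for RASSF8, 1.18 for PACSIN3, 1.43 for BCAR1, 1.57 for ACTA2 and 2.87 for CCR2. Groups of 3 libraries are too small for a check of single outlying values.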

How the results depend on the processing

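The 315 called differences became 294 to 332 under the other normalizations, filter, test and sets of libraries, and 225 to 300 without 1 library each, lowest without the third ZnSO4 library at 3 h. Genes called at 6 h against DMSO numbered 876 to 1353 without 1 library, lowest without the third ZnSO4 library at 6 h. Genes called between the times in ZnSO4 numbered 939 to 1497, with 939 without the second and 965 without the third ZnSO4 library at 3 h. Genes called between the times in DMSO went from 0 to 6 with no filter and to 1 in a fit of the 12 libraries alone. Persisting genes numbered 233 at a limit of 25%. Restricted to genes at least 2-fold changed at 3 h or 6 h, 31 had faded, 11 had turned sign, 2 had grown and 3 were late, against 85, 151, 4 and 55. Without the third DMSO library at 6 h, chosen after seeing the data, 1 had grown. Of 71 named genes with a called difference, 45 kept the call in all 12 fits without 1 library, 16 lost it in another setting, and 0 changed sign. Differences close to 0 did: without 1 library each the range was -0.1856 to 0.0668 for MYC, -0.1515 to 0.1568 for INKA2, -0.1429 to 0.0988 for DUSP10, -0.0886 to 0.1169 for MT1X, -0.1062 to 0.1682 for PIF1 and -0.0416 to 0.3039 for NEDD9, with library totals the value was 0.0398 for INKA2 and 0.0503 for DUSP10, and DUSP10 was 0.0022 in the fit of the 12 libraries, 0.0027 without the 24 h libraries, and MT1X -0.0316 with no filter. The causes were not tested. Depth limits genes of a few CPM and the metallothioneins, whose DMSO libraries held almost no reads. No paired analysis was possible because the labels give no replicate numbers and replicates were numbered in accession order.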
